A study of Mus musculus with 9 samples.

Results

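The messages described here are those of 10 cytokines and receptors of the interleukin-6 (IL-6) and interleukin-1 (IL-1) families. They were taken by gene symbol from a table of 56953 genes. The IL-6 family is represented by the ligands Il6, Lif and Il11 and the receptor chains Il6st (gp130) and Osmr. The IL-1 family is represented by the ligands Il1b and Il33 and the receptor chains Il1r1, Il1rap and Il1rl1. All 10 symbols were found, and 6 of them (Il6, Lif, Il6st, Osmr, Il1r1 and Il1rap) were abundant enough to be among the 14215 genes tested. The other 4 (Il11, Il1b, Il33 and Il1rl1) were under 1 TPM (a message's share of all transcripts, scaled by length) in every library.

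The messages were measured in 9 polyA RNA sequencing libraries of cultured cardiac fibroblasts. The cells came from the hearts of wildtype adult male C57BL/6N mice, and all were infected with an adenovirus and collected after 72 h. The 3 libraries of the first group received a virus for JP2 (junctophilin-2, the protein of Jph2; Ad-JP2), and the 3 of the second a virus labelled as a hairpin against JP2 (Ad-shJP2). The 3 control libraries received a virus carrying GFP (Ad-GFP), so that no group was free of virus. The labels do not say whether the replicates were separate cultures or hearts, and the p-values then measure the spread between these samples, which may be technical.

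Ligands of the IL-6 family signal through gp130, a chain that they share, paired with a chain specific to the ligand. The receptor complex activates Janus kinases and STAT3, and SOCS3 is induced in turn and damps the signal. IL-1 binds the chain encoded by Il1r1, which must recruit the accessory chain encoded by Il1rap before MyD88 can activate NF-kB. The accessory chain also serves the IL-33 receptor encoded by Il1rl1. Fibroblasts of the heart are known as a source of IL-6 and LIF and as responders to IL-1.

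Estimated depth was 36.95 to 41.3 M reads in Ad-JP2, 21.3 to 33.2 M in Ad-shJP2 and 40.55 to 45.8 M in Ad-GFP. Jph2 averaged 688 ± 49.9 TPM in Ad-JP2 and 129 ± 2.44 TPM in Ad-GFP (SD, n = 3 each; limma log2 fold change 2.40, SE 0.05, adjusted p = 3.07e-08). The libraries labelled Ad-shJP2 averaged 119.5 ± 3.09 TPM, and the log2 difference of -0.11 from Ad-GFP (SE 0.05, limma adjusted p = 0.0724) did not pass. It passed under 5 of 18 alternatives, among them the correction for GC content and length (-0.18, adjusted p = 0.00333), and was at 0.000485 with median-of-ratios scaling (adjusted p = 0.993). Since the call depended on the setting, these libraries are named by their label only. Summed fibroblast markers (9 genes) were 4232 to 4377 TPM in Ad-JP2, 2523 to 2593 TPM in Ad-shJP2 and 4085 to 4141 TPM in Ad-GFP. Collagens carried most of the sum, with Col1a1, Col1a2 and Col3a1 at 1570, 1341 and 700 TPM in Ad-GFP. Against Ad-GFP, 8 of the 9 were called lower in Ad-shJP2 and 1 higher, Thy1, beside 37.7% and 21.8% of all tested genes. In Ad-JP2, 4 were called higher and none lower, beside 13.4% and 1.64%. Corrected for GC content and length, 8 were lower and none higher in Ad-shJP2, beside 40.7% and 18.0% of all genes. In Ad-JP2 2 were then higher and none lower, beside 15.2% and 3.39%. Summed macrophage and leukocyte markers (17 genes, 16 of them at a mean of at least 1 TPM) were 3546 to 3603 TPM in Ad-JP2, 4416 to 4491 TPM in Ad-shJP2 and 3817 to 3870 TPM in Ad-GFP. Of these 17, 12 were called higher and 4 lower in Ad-shJP2 than in Ad-GFP, beside 21.8% and 37.7% of all tested genes. In Ad-JP2 2 were higher and 4 lower than in Ad-GFP, beside 13.4% and 1.64%. One called higher there, Ptprc (2.07 TPM, against 0.592 TPM in Ad-GFP), was abundant enough for testing only in Ad-JP2. Corrected for GC content and length, 4 were higher and 6 lower in Ad-shJP2 against Ad-GFP, beside 18.0% and 40.7% of all genes. In Ad-JP2 against Ad-GFP 6 were then higher and 1 lower, beside 15.2% and 3.39%. The balance of this list thus turned with the correction. In bulk RNA, fewer cells of a type and less RNA per cell cannot be told apart, and the part of these markers in the results was not tested.

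The 4 promoter windows that follow belong to the members with the widest differences between groups (Il1rap, Il6, Osmr) and to Lif, the tested member that did not share their direction in Ad-JP2. RefSeq gave the 10 members 14 windows, of which these 4 hold a match to the NF-kB motif (GGGA, any 4 bases, then CC), beside 20.7% of 32851 promoter windows of the same length. Each runs from 250 bases before to 50 bases after the annotated start, 5′ to 3′ on the gene's strand, from RefSeq on GRCm38.p6. Capitals mark matches on either strand to the NF-kB motif, the AP-1 motif TGANTCA or the C/EBP motif TTNNGCAAT.
Il6, chr5:30012864-30013163, plus strand: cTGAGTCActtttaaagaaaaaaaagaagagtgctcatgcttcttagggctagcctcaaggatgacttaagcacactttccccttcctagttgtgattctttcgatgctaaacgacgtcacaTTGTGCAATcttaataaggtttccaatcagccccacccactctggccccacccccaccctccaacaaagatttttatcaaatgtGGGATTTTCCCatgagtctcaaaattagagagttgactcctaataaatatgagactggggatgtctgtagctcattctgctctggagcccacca
Il1rap, chr16:26581455-26581754, plus strand: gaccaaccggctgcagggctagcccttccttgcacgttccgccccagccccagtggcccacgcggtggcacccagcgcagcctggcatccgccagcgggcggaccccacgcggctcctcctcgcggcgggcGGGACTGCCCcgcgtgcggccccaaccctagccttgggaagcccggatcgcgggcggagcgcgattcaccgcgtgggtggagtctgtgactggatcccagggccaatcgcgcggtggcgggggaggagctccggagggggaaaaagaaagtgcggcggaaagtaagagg
Osmr, chr15:6874264-6874563, minus strand: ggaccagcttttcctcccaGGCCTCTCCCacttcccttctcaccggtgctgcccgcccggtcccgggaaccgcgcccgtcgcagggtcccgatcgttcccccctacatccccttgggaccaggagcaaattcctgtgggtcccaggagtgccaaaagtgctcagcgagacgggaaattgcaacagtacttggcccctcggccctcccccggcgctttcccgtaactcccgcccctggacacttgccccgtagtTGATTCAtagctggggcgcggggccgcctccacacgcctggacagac
Lif, chr11:4257318-4257617, plus strand: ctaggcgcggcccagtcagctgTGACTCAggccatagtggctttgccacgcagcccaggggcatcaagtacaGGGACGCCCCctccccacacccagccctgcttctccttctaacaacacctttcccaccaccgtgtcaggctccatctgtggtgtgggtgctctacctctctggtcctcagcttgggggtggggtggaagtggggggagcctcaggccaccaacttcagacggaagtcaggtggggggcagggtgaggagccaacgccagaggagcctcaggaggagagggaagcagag

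In the Il6 window the NF-kB match lay from -44 to -35 relative to the start, with an overlapping match on the other strand from -43 to -34. Il6 also held an AP-1 match from -249 to -243 and was the one member with a C/EBP match, from -128 to -120 (2.18% of all windows hold one). The NF-kB match of Il1rap lay from -119 to -110, that of Osmr from -231 to -222 on the other strand, and that of Lif from -178 to -169. AP-1 matches were found in 4 of the 14 windows, those of Il11, Il6, Lif and Osmr, beside 7.81% of all windows. The STAT motif TTCNNNGAA was in none of the 14, beside 8.30% of all windows. The TEAD motif GGAATG was in 4 of the 14, from Il1r1, Il1rl1 and Il33 (14.7% of all windows), and the TATA box TATAAA in 3, from Il1b and Il33 (13.6%). These matches describe letters in the windows and do not show that a factor was bound.

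The ligand Il6, an acute-phase and proinflammatory cytokine, was the most abundant cytokine message of the set. It was at 49.8, 53.6 and 57.6 TPM in the Ad-JP2 libraries, at 6.87, 7.67 and 7.82 TPM in Ad-shJP2, and at 35.1, 42.8 and 35.8 TPM in Ad-GFP. Every Ad-JP2 library lay above every Ad-GFP library, and every Ad-shJP2 library lay far under both. Il6 averaged 53.7 ± 3.91 TPM in Ad-JP2 and 37.9 ± 4.27 TPM in Ad-GFP (SD, n = 3 each; 1.42-fold; limma log2 fold change 0.49, SE 0.09, adjusted p = 0.00431). Corrected for GC content and length, this difference was 0.22 and no longer passed (adjusted p = 0.0961). In Ad-shJP2 the mean was 7.45 ± 0.509 TPM, 5.09-fold lower than in Ad-GFP (limma log2 fold change -2.20, SE 0.09, adjusted p = 7.69e-08). Il6 stood at rank 20 from the lowest of the 14215 log2 fold changes in that comparison. Between Ad-JP2 and Ad-shJP2 the difference was 7.20-fold (log2 fold change 2.69, limma adjusted p = 1.27e-08).

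Lif, the ligand of the LIF receptor and gp130, followed another course. It was at 12.3, 11.4 and 11.4 TPM in Ad-JP2, at 6.66, 6.69 and 5.97 TPM in Ad-shJP2, and at 13.3, 14.4 and 12.8 TPM in Ad-GFP. The Ad-JP2 libraries lay just under the Ad-GFP libraries without overlap, and those of Ad-shJP2 lay lowest. The Ad-JP2 difference from Ad-GFP was -0.19 on the log2 scale (95% interval -0.34 to -0.04, limma adjusted p = 0.106) and did not pass. It passed with quantile normalization (-0.32, adjusted p = 0.0125). In Ad-shJP2 the mean of 6.44 ± 0.402 TPM was lower than the 13.5 ± 0.805 TPM of Ad-GFP (SD, n = 3 each; limma log2 fold change -0.96, SE 0.07, adjusted p = 2.75e-06). Lif was 1.82-fold higher in Ad-JP2 than in Ad-shJP2 (log2 fold change 0.77, limma adjusted p = 8.21e-06; 0.42 with quantile normalization, still called).

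Il11, a ligand of the family linked to fibroblast activation, was barely present. It was at 0.361, 0.374 and 0.613 TPM in Ad-JP2, at 0.381, 0.529 and 0.481 TPM in Ad-shJP2, and at 0.444, 0.697 and 0.460 TPM in Ad-GFP. The ranges of all 3 groups overlapped. These levels stand for about 11 to 36.1 reads per library, against a limit of 3 reads that corresponded to 0.0514 to 0.104 TPM. Its receptor chain Il11ra1 was well expressed by comparison, at 45.9 ± 3.82 TPM in Ad-JP2, 40.6 ± 3.802 TPM in Ad-shJP2 and 47.8 ± 3.12 TPM in Ad-GFP (SD, n = 3 each).

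**Figure D1:**
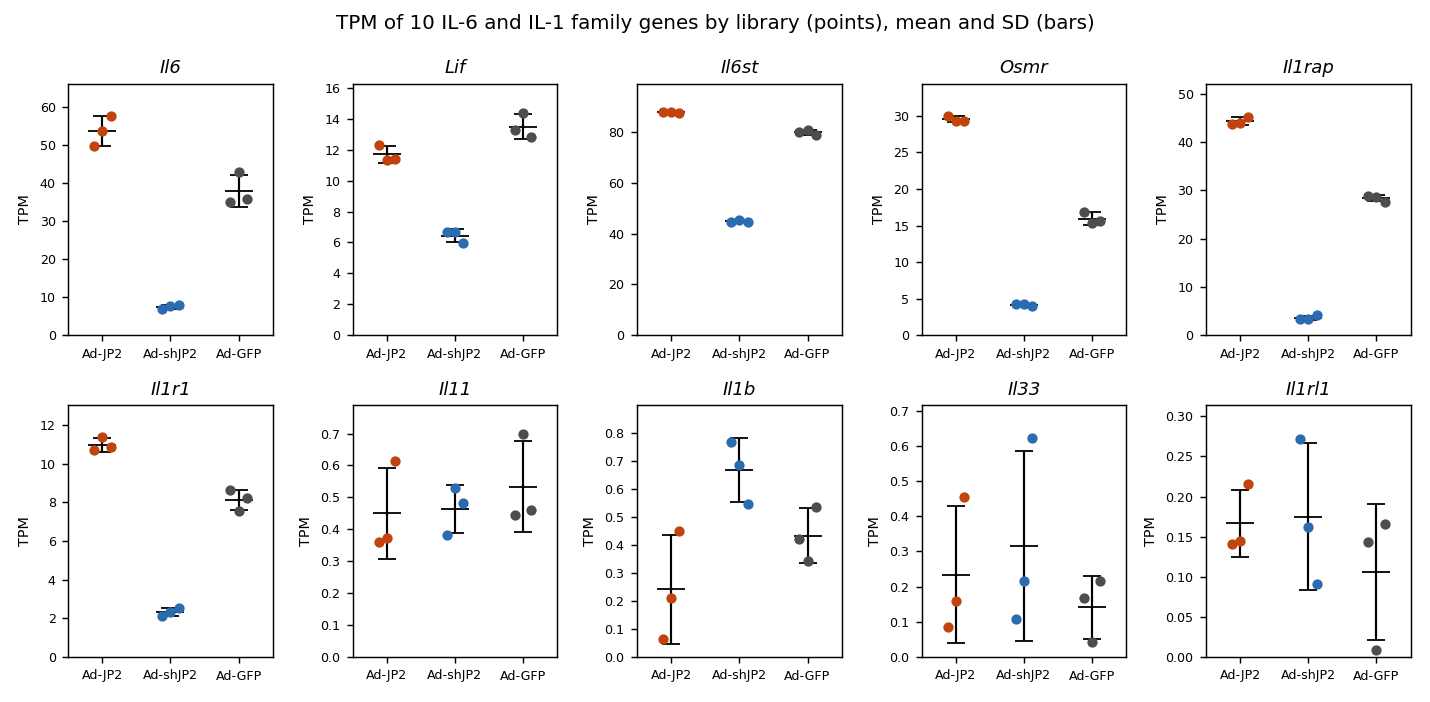
TPM of the 10 messages in each library (points), with the group mean and SD (bars), for Ad-JP2, Ad-shJP2 and Ad-GFP. For the 6 tested messages the Ad-shJP2 points lie lowest, with Il1rap at 3.27 to 4.11 TPM there, against 43.8 to 45.2 TPM in Ad-JP2 and 27.6 to 28.8 TPM in Ad-GFP.

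Il6st encodes gp130, the chain shared by the whole family, and was the most abundant of the 10 messages in each group. It was at 87.9, 87.9 and 87.7 TPM in Ad-JP2, at 44.7, 45.5 and 44.5 TPM in Ad-shJP2, and at 79.9, 80.9 and 79.0 TPM in Ad-GFP. The libraries of a group differed little, and no 2 groups overlapped. The mean of 87.9 ± 0.103 TPM in Ad-JP2 was 1.099-fold the 79.9 ± 0.956 TPM of Ad-GFP (SD, n = 3 each; limma log2 fold change 0.13, SE 0.03, adjusted p = 0.00788). That small difference turned to -0.082 after correction for GC content and length (adjusted p = 0.0742). In Ad-shJP2 the mean was 44.9 ± 0.483 TPM, a log2 fold change of -0.82 against Ad-GFP (SE 0.03, limma adjusted p = 2.54e-08; -0.49 after the correction, still called). Ad-JP2 exceeded Ad-shJP2 by 0.95 on the log2 scale (limma adjusted p = 5.21e-09), or by 0.40 after the correction, still called.

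Osmr, the chain that joins gp130 in the oncostatin M receptor, varied far more than gp130 itself. It was at 30.0, 29.3 and 29.3 TPM in Ad-JP2, at 4.29, 4.19 and 4.01 TPM in Ad-shJP2, and at 16.9, 15.3 and 15.7 TPM in Ad-GFP. The 3 groups stood well apart. Osmr rose 1.85-fold in Ad-JP2, to 29.5 ± 0.403 TPM, against 15.9 ± 0.841 TPM in Ad-GFP (SD, n = 3 each; limma log2 fold change 0.85, SE 0.05, adjusted p = 1.61e-05). Corrected for GC content and length, the difference was 0.65 and kept its call (adjusted p = 0.00014). It fell 3.83-fold in Ad-shJP2 against Ad-GFP, to a mean of 4.16 ± 0.143 TPM (limma log2 fold change -1.71, SE 0.05, adjusted p = 2.05e-08). The Ad-JP2 mean was 7.10-fold that of Ad-shJP2 (log2 fold change 2.56, limma adjusted p = 1.19e-09).

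Il1r1 encodes the chain that binds IL-1 and was the lowest of the 6 tested messages in each group. It was at 10.7, 11.4 and 10.8 TPM in Ad-JP2, at 2.09, 2.32 and 2.51 TPM in Ad-shJP2, and at 8.61, 7.55 and 8.19 TPM in Ad-GFP. Again the groups did not overlap. The mean was 10.97 ± 0.348 TPM in Ad-JP2 and 8.12 ± 0.532 TPM in Ad-GFP (SD, n = 3 each; 1.35-fold; limma log2 fold change 0.39, SE 0.08, adjusted p = 0.00681), and with GC content and length corrected for it was 0.083 and not called (adjusted p = 0.497). In Ad-shJP2 Il1r1 averaged 2.31 ± 0.212 TPM, a log2 fold change of -1.46 against Ad-GFP (SE 0.08, limma adjusted p = 3.93e-07). Between Ad-JP2 and Ad-shJP2 it differed 4.75-fold (log2 fold change 1.86, limma adjusted p = 5.14e-08; 1.12 after the correction, still called).

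Il1rap, the accessory chain without which the IL-1 receptor does not signal, showed the widest difference of the set. It was at 43.8, 43.9 and 45.2 TPM in Ad-JP2, at 3.41, 3.27 and 4.11 TPM in Ad-shJP2, and at 28.8, 28.6 and 27.6 TPM in Ad-GFP. Ad-shJP2 was the group far apart, and Ad-JP2 lay above Ad-GFP in every library. Il1rap averaged 44.3 ± 0.815 TPM in Ad-JP2 and 28.4 ± 0.661 TPM in Ad-GFP (SD, n = 3 each; 1.56-fold; limma log2 fold change 0.63, SE 0.07, adjusted p = 0.000273). Correction for GC content and length left 0.30, still called (adjusted p = 0.0107). It fell 7.89-fold in Ad-shJP2, to 3.60 ± 0.447 TPM (limma log2 fold change -2.68, SE 0.07, adjusted p = 7.10e-09), and ranked 3 from the lowest of the 14215 log2 fold changes against Ad-GFP. The Ad-JP2 mean was 12.3-fold that of Ad-shJP2 (log2 fold change 3.31, limma adjusted p = 1.12e-09), rank 10 from the highest. TPM per gene sums the isoforms, so the membrane and soluble forms of the receptor chains were not separated.

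The other ligands and the IL-33 receptor were near the limit of detection. Il1b, the inflammasome-processed form of IL-1 that leukocytes make in quantity, was at 0.0650, 0.210 and 0.448 TPM in Ad-JP2, at 0.768, 0.686 and 0.544 TPM in Ad-shJP2, and at 0.420, 0.341 and 0.535 TPM in Ad-GFP. The Ad-shJP2 values lay above those of both other groups, although by a narrow margin over Ad-GFP. Summed macrophage and leukocyte markers, uncorrected for GC content, were highest in those libraries as well. With GC content and length corrected for, 4 of those 17 markers were higher and 6 lower in Ad-shJP2 than in Ad-GFP. The corrected shares over all genes were 18.0% and 40.7%. In Ad-JP2 against Ad-shJP2, 11 were higher and 3 lower after that correction, beside 48.5% and 17.8% of all genes. A link of these markers to Il1b was not tested. The Il1b levels rest on about 2 to 19.2 reads per library. With no filter on low values, the log2 difference between Ad-JP2 and Ad-shJP2 was -0.43 (limma adjusted p = 0.0187), and neither comparison with Ad-GFP passed (adjusted p = 0.439 for Ad-JP2 and 0.221 for Ad-shJP2). Il33, an alarmin of the IL-1 family, was at 0.0860, 0.160 and 0.454 TPM in Ad-JP2, at 0.109, 0.217 and 0.621 TPM in Ad-shJP2, and at 0.166, 0.0410 and 0.215 TPM in Ad-GFP. Each Il33 value corresponded to fewer than 3 reads, so no difference was detectable at this depth. Its receptor chain Il1rl1 (ST2) was at 0.141, 0.144 and 0.215 TPM in Ad-JP2, at 0.272, 0.162 and 0.0910 TPM in Ad-shJP2, and at 0.143, 0.00900 and 0.166 TPM in Ad-GFP, or about 0.4 to 8.7 reads. The groups overlapped for Il33 and for Il1rl1. Markers of mast cells and type 2 lymphoid cells, which carry ST2, summed to 1.05 to 2.58 TPM over the 9 libraries. Most of that was Gata3, and each of the other 5 markers averaged under 1 TPM in every group.

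Set against all genes, 5 of the 6 tested members were called higher in Ad-JP2 than in Ad-GFP and none lower, where 13.4% of all tested genes were called higher and 1.64% lower. The exception was Lif. With GC content and length corrected for, 2 of the 6 were called higher, Osmr and Il1rap, where 15.2% of 14025 genes were called higher and 3.39% lower. The corrected shares over all genes were 18.0% higher and 40.7% lower in Ad-shJP2 against Ad-GFP, and 48.5% higher and 17.8% lower in Ad-JP2 against Ad-shJP2. In Ad-shJP2 all 6 were called lower than in Ad-GFP, where 37.7% of all tested genes were called lower and 21.8% higher. Between Ad-JP2 and Ad-shJP2 all 6 were called higher, where 40.3% of all tested genes were called higher and 24.1% lower. The members' median log2 fold change was 0.44 for Ad-JP2 against Ad-GFP, -1.59 for Ad-shJP2 against Ad-GFP and 2.21 for Ad-JP2 against Ad-shJP2, beside 0.01, -0.11 and 0.10 over all tested genes. Both comparisons with Ad-GFP use the same 3 control libraries. The members were chosen with earlier results of these data known, so the shares set beside theirs are a description and not a test. Called higher in Ad-JP2 and lower in Ad-shJP2 were 5 of the 6 members and 10.8% of all tested genes. The 3 and 3 library values of each tested member did not overlap in any comparison, as held for 32.2% of all genes between Ad-JP2 and Ad-GFP, 65.3% between Ad-shJP2 and Ad-GFP and 67.1% between Ad-JP2 and Ad-shJP2. An exact two-sided permutation test of each gave p = 0.1, the smallest that 3 against 3 libraries allow.

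**Figure D2:**
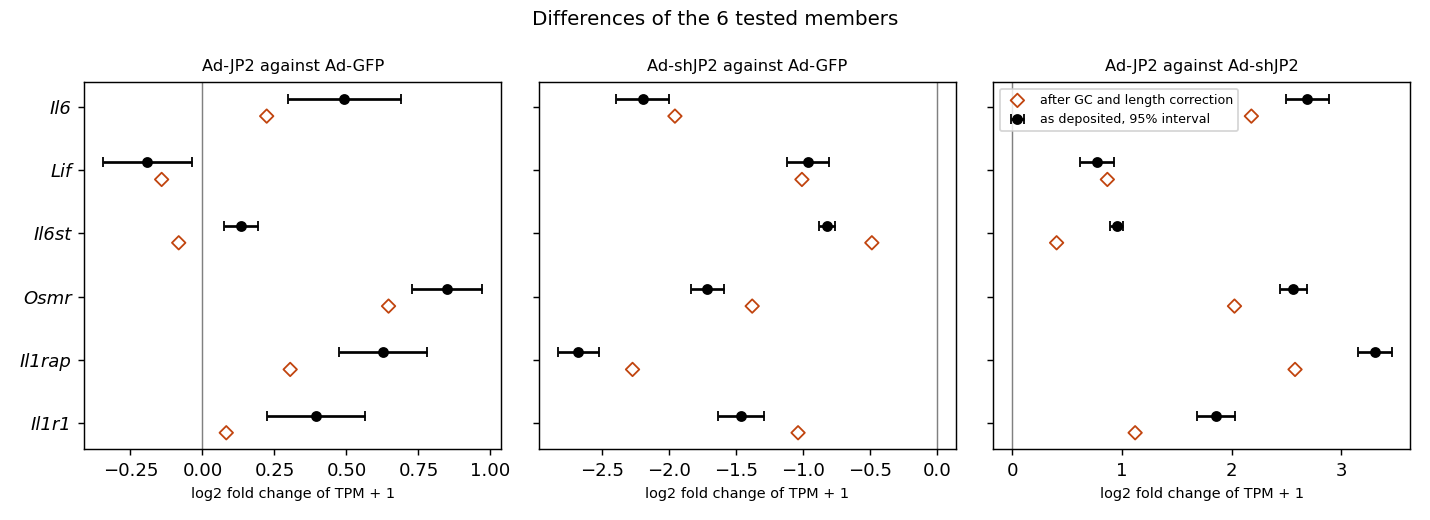
Log2 fold change of TPM + 1 for the 6 tested messages in each comparison, as deposited (filled points with the 95% interval) and after correction for GC content and length (open diamonds); each panel has its own scale. In Ad-JP2 against Ad-GFP, Osmr is highest at 0.85 and Lif lies under 0 at -0.19, and in Ad-shJP2 against Ad-GFP Il1rap is lowest at -2.68.

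The receptor chains that act together did not keep one proportion, which was followed as ratios of TPM within each library. The ratio of Osmr to Il6st was 0.336 ± 0.00448 in Ad-JP2, 0.0926 ± 0.00297 in Ad-shJP2 and 0.199 ± 0.0112 in Ad-GFP (SD, n = 3 each). The oncostatin M chain was thus scarcest, relative to gp130, in the libraries labelled Ad-shJP2. The ratio of Il1rap to Il1r1 was 4.04 ± 0.160 in Ad-JP2, 1.56 ± 0.129 in Ad-shJP2 and 3.50 ± 0.248 in Ad-GFP. The accessory chain outnumbered the binding chain in all 9 libraries, least so in Ad-shJP2. Of the ligands, the ratio of Lif to Il6 was 0.219 ± 0.0256 in Ad-JP2, 0.868 ± 0.102 in Ad-shJP2 and 0.358 ± 0.0215 in Ad-GFP. For these 3 ratios no 2 groups overlapped, and exact permutation tests could not go under p = 0.1 at this size.

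**Figure D3:**
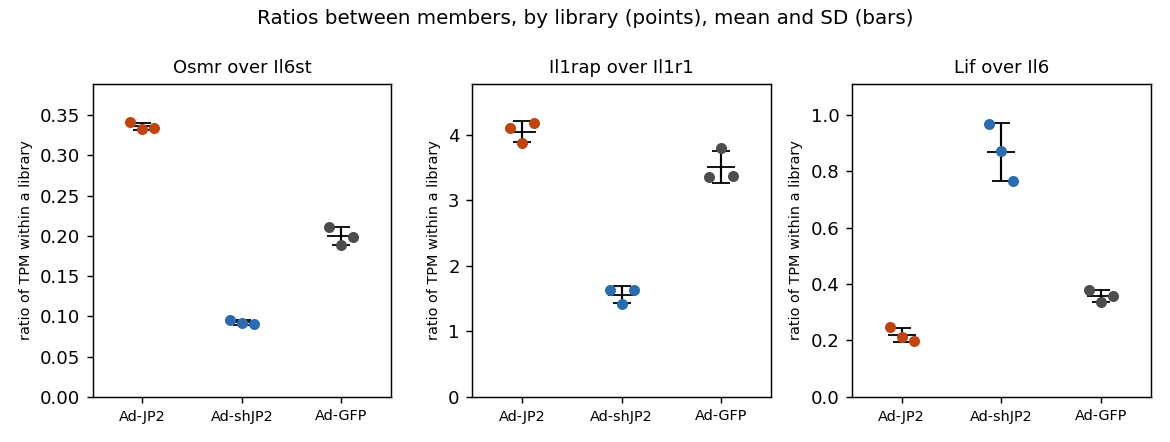
Ratios of TPM within a library for Osmr over Il6st, Il1rap over Il1r1 and Lif over Il6 in Ad-JP2, Ad-shJP2 and Ad-GFP; points are libraries, bars the mean and SD of 3. Osmr over Il6st is 0.336 in Ad-JP2, 0.0926 in Ad-shJP2 and 0.199 in Ad-GFP, and Lif over Il6 is highest in Ad-shJP2 at 0.868.

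The order of the TPM levels was the same in Ad-JP2 and Ad-GFP down to the sixth message, namely Il6st, Il6, Il1rap, Osmr, Lif and Il1r1, and no neighbours in it overlapped. In Ad-shJP2 the order was Il6st, Il6, Lif, Osmr, Il1rap and Il1r1, where Osmr at 4.01 to 4.29 TPM and Il1rap at 3.27 to 4.11 TPM overlapped. Over the 9 libraries the Pearson correlation of log2(TPM + 1) between pairs of the 6 tested members ran upward from 0.859 for Lif and Osmr to 0.997 for Il1r1 and Il1rap. These values describe 9 libraries in 3 groups and mostly carry the differences between groups. By the same measure, among genes averaging at least 5 TPM, the genes most like Il6 were Serbp1 (0.998) and Gucy1b1 (0.998). For Lif they were Dhrs7 (0.997) and Sdc4 (0.992), for Il6st Ankrd1 (0.9997) and Akap12 (0.999), and for Osmr Sf3b1 (0.999) and Lama2 (0.999). For Il1r1 they were Ptprb (0.999) and Pkd2 (0.999), and for Il1rap Vps41 (0.999) and Ryk (0.999).

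The 10 messages differed in base composition and in the AU-rich pentamer ATTTA, which marks many short-lived cytokine messages. GC content of the longest coding transcript in GENCODE vM21 ran upward from 39.3% in Il6 to 53.0% in Lif, beside a median of 50.4% over tested genes. Lif, the one tested member not raised in Ad-JP2, had the highest GC content of the 10. The tested members called higher there had 39.3% (Il6), 42.1% (Il1rap), 43.9% (Il1r1), 46.0% (Osmr) and 47.4% (Il6st). What GC content contributed to these differences was not tested beyond the correction given above. Downstream of the stop codon the pentamer occurred 10 times in Il6 and in Il11, 9 times in Il6st, 8 times each in Il1r1 and Il1rap and 7 times in Lif. It occurred 4 times each in Osmr and Il1b and 3 times each in Il1rl1 and Il33. The median over 11400 tested genes was 1, and 21.6% of them held at least 5. These counts were not adjusted for the length downstream of the stop codon, which had a median of 1126 bases over those genes. That length was above the median in every member but Il1b (459 bases), and reached 3246 in Il1rl1 and 5641 in Il6st. An AU-rich nonamer was found 5 times in Il11, 2 times in Lif and in no other member, beside 7.86% of those genes. For Il6 the transcript used had 2343 bases, longer than the mean length of 1092 bases in the deposited table. For Il1rl1 it had 5302 bases against 2031, and for Il33 2544 against 370. In each of these the stretch downstream of the stop codon alone exceeded the deposited length. Their pentamer counts and GC contents may therefore not describe the forms expressed here.

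Of 15 other ligands and receptors of the IL-6 family, 8 were tested. In Ad-JP2 1 of the 8 was called higher than in Ad-GFP and none lower, a share near the 13.4% of all tested genes called higher. That one was Il6ra, the specific chain of the IL-6 receptor, at 2.21 ± 0.475 TPM in Ad-JP2 and 1.36 ± 0.120 TPM in Ad-GFP (SD, n = 3 each; log2 fold change 0.43, limma adjusted p = 0.0415), a call lost under 14 of 17 alternatives. In Ad-shJP2, 1 of the 8 was higher and 2 were lower than in Ad-GFP, beside 21.8% and 37.7% of all tested genes. Cntfr, the specific receptor chain of ciliary neurotrophic factor, rose to 4.52 ± 0.570 TPM in Ad-shJP2, against 1.21 ± 0.220 TPM in Ad-GFP (log2 fold change 1.32, limma adjusted p = 1.58e-05). Il11ra1 had a log2 fold change of -0.23 in Ad-shJP2 (limma adjusted p = 0.0368), a call lost under 6 of 18 alternatives. Without Ad-shJP2 replicate 2 it was -0.16 (adjusted p = 0.114), and with GC content and length corrected for it was -0.51. Lifr, the LIF-binding chain, averaged 2.80 ± 0.979 TPM in Ad-JP2, 1.29 ± 0.674 TPM in Ad-shJP2 and 1.67 ± 0.341 TPM in Ad-GFP. Its difference passed only between Ad-JP2 and Ad-shJP2 (log2 fold change 0.74, limma adjusted p = 0.0224) and turned to -0.11 after correction for GC content and length. It also lost its call without Ad-JP2 replicate 2 (0.54), Ad-shJP2 replicate 1 (0.74) or Ad-shJP2 replicate 3 (0.53). In that comparison 3 of the 8 were higher and 1 lower, beside 40.3% and 24.1% of all tested genes. With GC content and length corrected for, 4 of the 8 were lower in Ad-shJP2 than in Ad-GFP and 6 were higher in Ad-JP2 than in Ad-shJP2. The corrected shares over all genes were 40.7% and 48.5%.

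Of 16 other IL-1 family ligands, receptors and decoys, 5 were tested, and none was called in Ad-JP2 against Ad-GFP. In Ad-shJP2 against Ad-GFP 2 were higher and 1 lower, and in Ad-JP2 against Ad-shJP2 1 was higher and 1 lower. Over all tested genes 21.8% were higher and 37.7% lower in the first, and 40.3% and 24.1% in the second. The IL-1 receptor antagonist Il1rn was at 7.55 ± 0.592 TPM in Ad-JP2, 10.4 ± 1.11 TPM in Ad-shJP2 and 7.41 ± 0.566 TPM in Ad-GFP, and rose in Ad-shJP2 against Ad-GFP (log2 fold change 0.44, limma adjusted p = 0.00276). The IL-18 binding protein Il18bp was at 4.32 ± 0.893 TPM in Ad-shJP2 and 2.05 ± 0.613 TPM in Ad-GFP (0.81, limma adjusted p = 0.00437). Il1rl2, the IL-36 receptor chain that also uses the Il1rap chain, fell to 4.43 ± 0.383 TPM in Ad-shJP2, against 8.75 ± 0.398 TPM in Ad-GFP (-0.85, limma adjusted p = 2.26e-05). Il18 averaged 1.77 to 1.86 TPM in the 3 groups with overlapping libraries, and the ligand Il1a stayed under the filter at 0.413 ± 0.107 TPM in Ad-JP2, 0.258 ± 0.0396 TPM in Ad-shJP2 and 0.450 ± 0.140 TPM in Ad-GFP.

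Of the Janus kinases, STATs and their feedback inhibitors all 17 were tested. In Ad-JP2, 4 were called higher and none lower than in Ad-GFP, beside 13.4% and 1.64% of all tested genes. In Ad-shJP2, 5 were higher and 7 lower than in Ad-GFP, beside 21.8% and 37.7%. Jak1, the main kinase at gp130, was at 93.4 ± 1.05 TPM in Ad-JP2, 28.1 ± 0.800 TPM in Ad-shJP2 and 73.7 ± 1.101 TPM in Ad-GFP (SD, n = 3 each). It rose in Ad-JP2 (log2 fold change 0.34, limma adjusted p = 0.00013) and fell in Ad-shJP2 (-1.36, limma adjusted p = 4.87e-09). Jak2 was at 7.79 ± 0.656 TPM in Ad-JP2, 0.810 ± 0.0914 TPM in Ad-shJP2 and 2.58 ± 0.229 TPM in Ad-GFP, and it rose in Ad-JP2 (limma log2 fold change 1.30, adjusted p = 2.60e-05) and fell in Ad-shJP2 (-0.98, adjusted p = 1.69e-05; -0.60 with GC content and length corrected for, still called). Socs2, an inhibitor of cytokine signalling, did likewise (0.52, adjusted p = 0.000106 in Ad-JP2; -1.30, adjusted p = 4.96e-08 in Ad-shJP2). Stat3, the factor that carries the gp130 signal, was at 93.5 ± 1.43 TPM in Ad-JP2 and 93.2 ± 2.11 TPM in Ad-GFP (0.01, limma adjusted p = 0.962), and fell to 68.7 ± 4.83 TPM in Ad-shJP2 (-0.44, adjusted p = 5.01e-05). Socs3 was at 8.96 ± 0.249 TPM in Ad-JP2, 12.1 ± 0.0940 TPM in Ad-shJP2 and 8.29 ± 0.545 TPM in Ad-GFP. It did not pass in Ad-JP2 (0.10, limma adjusted p = 0.340) and rose in Ad-shJP2 (0.50, adjusted p = 8.32e-05; 0.27 with GC content and length corrected for, still called), the group with the lowest Il6 and Lif. In Ad-JP2 against Ad-shJP2, 8 of the 17 were higher and 6 lower, beside 40.3% and 24.1% of all tested genes. Socs3 was among the lower ones at -0.40, and after correction for GC content and length it was at -0.04 and not called.

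Of 16 genes linked to the STAT3 response, 13 were tested. In Ad-JP2 against Ad-GFP 1 was higher and none lower, namely Myc (log2 fold change 0.15, limma adjusted p = 0.0324), whose call was lost under 6 of 18 alternatives, 4 of which left out an Ad-JP2 or Ad-GFP library. With GC content and length corrected for, 5 were called higher there and none lower. The shares over all genes there were 13.4% higher and 1.64% lower as deposited, and 15.2% and 3.39% corrected. In Ad-shJP2 against Ad-GFP 7 were higher and 4 lower, with a list median of 0.12 beside -0.11 over all genes. Of all tested genes 21.8% were higher and 37.7% lower. With that correction the counts were 4 higher and 5 lower, beside 18.0% and 40.7% of all genes. The survival kinase Pim1 rose to 22.1 ± 1.23 TPM in Ad-shJP2, against 10.9 ± 0.537 TPM in Ad-GFP (SD, n = 3 each; log2 fold change 0.95, limma adjusted p = 1.77e-06). The transcription factor Cebpd fell to 22.4 ± 1.76 TPM, against 46.5 ± 1.54 TPM (-1.03, adjusted p = 7.30e-06), and the IL-4 receptor chain Il4ra fell to 48.7 ± 1.21 TPM, against 78.5 ± 1.21 TPM (-0.68, adjusted p = 8.24e-07). In Ad-JP2 against Ad-shJP2 5 were higher and 7 lower, which became 8 higher and 2 lower after the correction. Over all genes 40.3% were higher and 24.1% lower as deposited, and 48.5% and 17.8% after the correction. In Ad-shJP2 against Ad-GFP, where Il6 and Il6st were lower, the called genes of this list went both ways, as deposited and corrected.

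**Figure D4:**
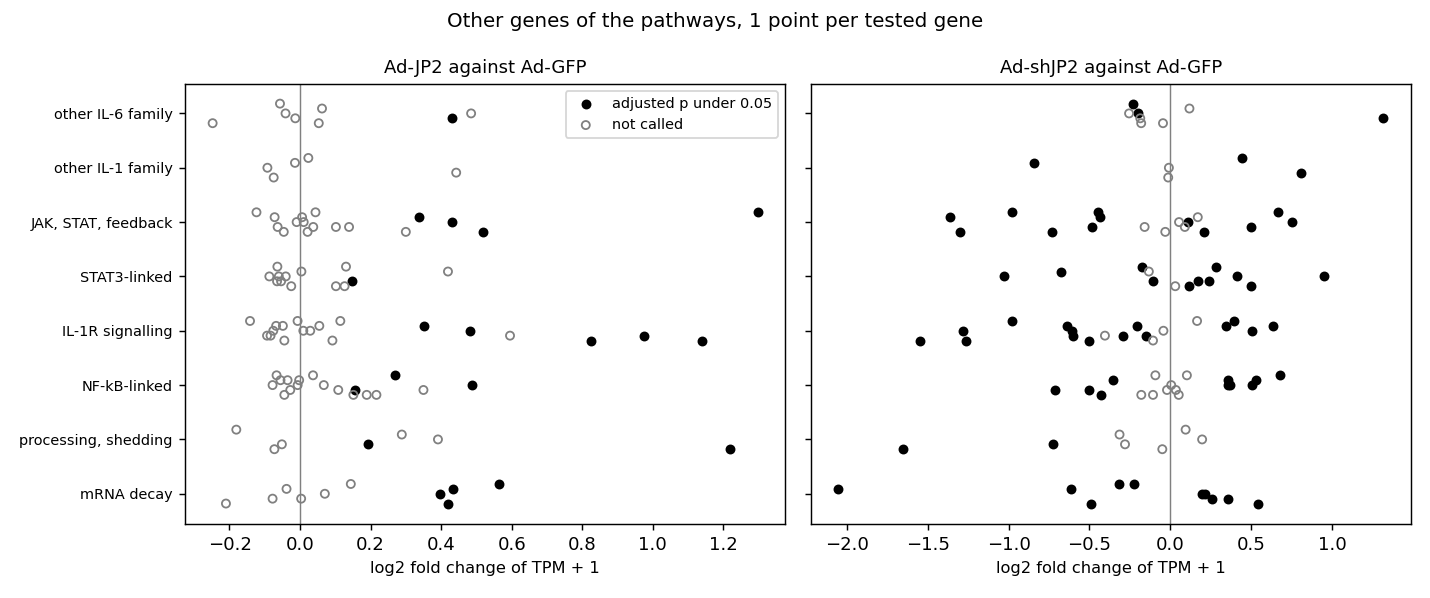
Log2 fold change of TPM + 1 for the tested genes of each pathway list, in Ad-JP2 against Ad-GFP and in Ad-shJP2 against Ad-GFP. Each point is a gene, filled where called (limma adjusted p under 0.05) and open where not. In Ad-shJP2 against Ad-GFP the IL-1 receptor signalling list has 4 called higher and 11 called lower of 19, and the STAT3-linked list 7 called higher and 4 called lower of 13.

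IL-1 receptor signalling had 19 genes, all tested. In Ad-JP2 5 were higher and none lower than in Ad-GFP, in Ad-shJP2 against Ad-GFP 4 were higher and 11 lower, and in Ad-JP2 against Ad-shJP2 9 were higher and 4 lower. In the same order, 13.4%, 21.8% and 40.3% of all tested genes were called higher, and 1.64%, 37.7% and 24.1% lower. The adaptor Tab2 was at 33.8 ± 2.20 TPM in Ad-JP2, 5.59 ± 0.236 TPM in Ad-shJP2 and 14.8 ± 0.239 TPM in Ad-GFP, and was called in both comparisons with Ad-GFP (log2 fold change 1.14, limma adjusted p = 5.13e-06 in Ad-JP2; -1.26, adjusted p = 1.97e-07 in Ad-shJP2). Chuk, a kinase of the IKK complex, was at 18.8 ± 0.727 TPM in Ad-JP2, 2.83 ± 0.334 TPM in Ad-shJP2 and 10.2 ± 0.988 TPM in Ad-GFP (0.82 and adjusted p = 0.00025 in Ad-JP2, 0.54 with GC content and length corrected for; -1.55 and adjusted p = 7.28e-07 in Ad-shJP2). The ubiquitin ligase Peli1 rose in Ad-JP2 to 3.81 ± 0.598 TPM, against 1.45 ± 0.399 TPM in Ad-GFP (0.98, limma adjusted p = 0.00273; 0.64 with GC content and length corrected for, still called). The kinase Map3k7 (TAK1) fell in Ad-shJP2 to 12.7 ± 2.38 TPM, against 32.1 ± 2.45 TPM in Ad-GFP (-1.28, limma adjusted p = 3.87e-05). Myd88, the adaptor at the receptor, went the other way from the receptor chains. It was at 22.2 ± 0.598 TPM in Ad-JP2, 36.7 ± 0.648 TPM in Ad-shJP2 and 23.3 ± 0.325 TPM in Ad-GFP, and rose in Ad-shJP2 (0.63, limma adjusted p = 1.05e-06; 0.39 with GC content and length corrected for, still called). Nfkb1 was at 28.2 ± 0.593 TPM in Ad-JP2 and 25.96 ± 0.275 TPM in Ad-GFP (0.11, limma adjusted p = 0.0995), and fell to 12.7 ± 0.293 TPM in Ad-shJP2 (-0.98, adjusted p = 9.24e-08).

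Of 20 genes linked to the NF-kB response, 18 were tested. Against Ad-GFP 3 were higher and none lower in Ad-JP2, in Ad-shJP2 against Ad-GFP 6 were higher and 4 lower, and in Ad-JP2 against Ad-shJP2 7 were higher and 5 lower. Shares of all tested genes, in that order, were 13.4%, 21.8% and 40.3% higher and 1.64%, 37.7% and 24.1% lower. In Ad-JP2 the chemokine Ccl2 was at 364 ± 8.08 TPM, against 327 ± 9.16 TPM in Ad-GFP (log2 fold change 0.16, limma adjusted p = 0.00404), and the cyclooxygenase Ptgs2 at 5.88 ± 0.428 TPM, against 3.90 ± 0.111 TPM (0.49, adjusted p = 0.00918). Both calls were lost after correction for GC content and length, and that of the neutrophil chemokine Cxcl1 (0.27, adjusted p = 0.0392) under 11 of 18 alternatives. The corrected counts for Ad-JP2 against Ad-GFP were 2 higher and 2 lower, beside 15.2% and 3.39% of all genes. In Ad-shJP2 Cxcl1 rose to 7.997 ± 0.611 TPM, against 4.62 ± 0.224 TPM in Ad-GFP (0.68, limma adjusted p = 4.67e-05). Its relative Cxcl5 fell to 26.5 ± 1.11 TPM, against 44.0 ± 1.54 TPM (-0.71, adjusted p = 4.64e-06), and the matrix protease Mmp3 rose to 84.8 ± 1.15 TPM, against 58.5 ± 1.60 TPM (0.53, adjusted p = 4.37e-06). The adhesion molecule Vcam1 was at 85.3 ± 1.35 TPM in Ad-JP2 and 55.5 ± 1.61 TPM in Ad-shJP2 (0.61, limma adjusted p = 3.70e-07; 0.16 after the correction, still called), and Birc3, an inhibitor of apoptosis, at 8.43 ± 1.15 TPM in Ad-JP2 and 5.00 ± 0.234 TPM in Ad-shJP2 (0.64, adjusted p = 0.000741; 0.26 with quantile normalization, still called).

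Enzymes that process or shed these cytokines and receptors numbered 7, all tested. Set against Ad-GFP, 2 were higher and none lower in Ad-JP2, in Ad-shJP2 against Ad-GFP none was higher and 2 were lower, and in Ad-JP2 against Ad-shJP2 3 were higher and 1 lower. All tested genes were called higher in 13.4%, 21.8% and 40.3%, and lower in 1.64%, 37.7% and 24.1%, in the same order. Adam10, a membrane protease that can release receptor ectodomains, was at 37.7 ± 0.462 TPM in Ad-JP2, 4.30 ± 0.490 TPM in Ad-shJP2 and 15.6 ± 0.363 TPM in Ad-GFP. It rose in Ad-JP2 (log2 fold change 1.22, limma adjusted p = 8.28e-06) and fell in Ad-shJP2 (-1.65, adjusted p = 9.11e-08). Adam17, the protease known for releasing the IL-6 receptor, was at 17.3 ± 0.648 TPM in Ad-JP2, 8.69 ± 0.241 TPM in Ad-shJP2 and 14.99 ± 0.184 TPM in Ad-GFP. Its fall in Ad-shJP2 was called (-0.72, limma adjusted p = 2.19e-06; -0.41 with GC content and length corrected for, still called). Its small difference in Ad-JP2 (0.19, adjusted p = 0.0286) turned to -0.012 once GC content and length were corrected for. The inflammatory caspase Casp4 was higher in Ad-JP2 than in Ad-shJP2 (0.60, limma adjusted p = 0.0146), a call lost under 4 of 18 alternatives. It was at 0.26 with GC content and length corrected for, 0.49 without Ad-JP2 replicate 3 and 0.50 without Ad-shJP2 replicate 3.

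Factors that set the stability of cytokine messages numbered 10, all tested. In Ad-JP2 against Ad-GFP 4 were higher and none lower, in Ad-shJP2 against Ad-GFP 5 were higher and 5 lower, and in Ad-JP2 against Ad-shJP2 6 were higher and 4 lower. Among all tested genes 13.4%, 21.8% and 40.3% were higher and 1.64%, 37.7% and 24.1% lower, in that order. Zfp36l1, which binds AU-rich elements and promotes decay, was at 47.9 ± 3.25 TPM in Ad-JP2, 7.74 ± 1.04 TPM in Ad-shJP2 and 35.1 ± 0.634 TPM in Ad-GFP. It rose in Ad-JP2 (log2 fold change 0.43, limma adjusted p = 0.0082) and fell in Ad-shJP2 (-2.05, adjusted p = 1.11e-07), the same directions as Il6. Arid5a, known for stabilizing the Il6 message, rose in Ad-shJP2 to 9.74 ± 0.711 TPM, against 6.41 ± 0.854 TPM in Ad-GFP (0.54, limma adjusted p = 0.00249). Khsrp, another decay factor, fell there to 19.1 ± 0.772 TPM, against 29.7 ± 1.51 TPM (-0.61, limma adjusted p = 8.19e-06). The Roquin genes Rc3h1 and Rc3h2, which repress Il6 among other targets, were called higher in Ad-JP2 than in Ad-GFP (0.56 and adjusted p = 0.00859 for Rc3h1; 0.42 and adjusted p = 0.027 for Rc3h2). After correction for GC content and length, Rc3h1 was no longer called and Rc3h2 turned to -0.10. The Rc3h2 call was also lost without Ad-GFP replicate 1 (0.34) or any one Ad-JP2 library (0.42). The list's corrected counts were 3 higher and 1 lower in Ad-JP2 against Ad-GFP, and 3 higher and 3 lower in Ad-shJP2 against Ad-GFP. The corrected shares over all genes were 15.2% higher and 3.39% lower in the first, and 18.0% and 40.7% in the second. In Ad-JP2 against Ad-shJP2, where both Roquin genes were called higher as deposited, the correction turned them to -0.15 for Rc3h1 and -0.17 for Rc3h2.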

How the data were processed

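The values were the deposited TPM per gene of 9 libraries, made by the authors from stranded polyA libraries, beside columns of gene length and effective length. DRAGEN, Salmon, DESeq2 and the build GRCm39 are named in the submitters' processing notes; the sources used here give no versions or roles. Groups came from the labels.

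The 14215 genes that reached 1 TPM in 3 or more libraries were tested on log2(TPM + 1), which understates changes of low genes. Fold ratios are ratios of mean TPM. One model with 3 group means was fitted to all 9 libraries with limma 3.58.1 in R 4.3.3 (mean-variance trend, two-sided). Benjamini-Hochberg adjustment ran over all tested genes, with 0.05 as the threshold, and every adjusted p comes from limma.

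Depth was recovered from the steps of TPM times effective length. Values within 0.1 of a whole read were 94.65% of low genes in Ad-GFP replicate 3 and 38.5% to 59.7% in the others. The length columns name no library and may come from Ad-GFP replicate 3, which was not tested. Read numbers are therefore approximate. Read limits cover counting error only.

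The GC and length correction fitted splines (5 df each) per library to 14025 genes with a GENCODE vM21 transcript on GRCm38. Promoters are RefSeq windows on GRCm38.p6; coordinates are of that build. The alternatives were 18 settings of pseudocount, filter, scaling, GC correction, replicate block, groups fitted and left-out libraries. Same-numbered libraries did not deviate together (correlations -0.11 to 0.11). The fit was tested on simulated data. The members and lists were chosen with earlier results of these data known. Genes named were the 10 members, Jph2, 11 set genes of the pathways, for each list and comparison up to 3 called genes of largest change, and 2 genes most like each tested member. Some genes meeting this rule are not reported here but stayed in every test and count. The analysis used Python 3.11.15, pandas 2.3.3 and scipy 1.17.1.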

Additional observations from a re-analysis of the deposited data

How the results depend on the processing

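Each tested member's comparison was recomputed under 18 alternatives. In Ad-shJP2 against Ad-GFP and in Ad-JP2 against Ad-shJP2 all 6 members kept direction and call under every one. In Ad-JP2 against Ad-GFP the correction for GC content and length left 2 of the 6 members called higher and turned Il6st to -0.082. Leaving out any one library left 5 members called there. Other differences that turned were Adam17 (-0.012) and Rc3h2 (-0.10) in Ad-JP2 against Ad-GFP, and Lifr (-0.11), Rc3h1 (-0.15) and Rc3h2 (-0.17) in Ad-JP2 against Ad-shJP2, all with the same correction. Jph2 in Ad-shJP2 against Ad-GFP came to 0.000485 with median-of-ratios scaling, and passed in the same downward direction under 5 others. The cause was not tested. The other named genes kept direction and call in 1193 of their fits, lost the call in 69 and turned in 5.

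Scaling moved the balance of calls over all genes. In Ad-shJP2 against Ad-GFP 3093 were higher and 5353 lower, against 4157 and 4333 with median-of-ratios scaling and 4233 and 3849 with quantile normalization, and the median log2 fold change over all genes was -0.11, -0.016 and 0.023 in that order. In Ad-JP2 against Ad-shJP2 5731 were higher and 3421 lower, against 4735 and 4634 with median-of-ratios scaling and 4026 and 5570 with quantile normalization (medians 0.10, -0.014 and -0.11). In Ad-JP2 against Ad-GFP 1902 were higher and 233 lower, against 1462 and 748 with quantile normalization. With the replicate number as a block 1929 genes were called in Ad-JP2 against Ad-GFP, 8226 in Ad-shJP2 against Ad-GFP and 9009 in Ad-JP2 against Ad-shJP2, and no member's call changed. With a library left out, 1505 to 2264, 7703 to 8438 and 8393 to 8987 genes were called in these comparisons. Depth limited Il33, Il1rl1 and Il1b most.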
